A study of Homo sapiens with 6 samples.

Results

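Zinc finger genes named ZNF and a number form the most numerous group of transcription factor genes in human, and 96 of them were measured with at least 50 reads in each of the 6 libraries of this RNA-seq. The table held 391 names of the form ZNF, a number and at most 1 further letter, among 17222 gene names, and 344 of the 391 passed the filter on low counts that edgeR applies. The members were chosen by name and by reads per library, so their level is part of the choice. The floor counts the knockdown libraries too, and a gene that fell far after knockdown could drop out of the set.

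The RNA-seq was made from H226 cells, an established line of lung squamous carcinoma. Both conditions received an antisense oligonucleotide by transient transfection at 50 nM and were collected after 48 h, and each gave 3 libraries. The 3 ASO_LINC libraries received ASO_LINC#3, which is directed against the long noncoding RNA *SWINGN* (*LINC00565*), and the 3 ASO_CTRL libraries received the control oligonucleotide. A single oligonucleotide sequence stands for the knockdown, *SWINGN* itself was not analysed here, and the labels do not say what separates the libraries of a condition. The study states that its experiments were done as biological triplicates in general, and p-values here measure the spread between these libraries.

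Most ZNF proteins carry runs of C2H2 zinc fingers, in which a pair of cysteines and a pair of histidines hold a zinc ion and a short helix reads the bases of DNA. Many also carry a KRAB domain, which recruits the corepressor TRIM28 and, through it, the histone methyltransferase SETDB1 and heterochromatin proteins, and genes of this kind lie in clusters on chromosome 19 that arose by tandem duplication. The ZNF symbol does not define a function, however. Some ZNF proteins work on ribosomes, on RNA or at the spindle, and some have no C2H2 finger.

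One finger of *ZNF629*, the only member that fell by the thresholds used below, shows the pattern. The bases below are read from its coding sequence on GRCh37 (minus strand of chromosome 16), 5′ to 3′, and hold 1 finger and the linker that joins it to the next. Capitals mark the codons of the 2 cysteines and the 2 histidines that bind zinc.
ZNF629 finger 1: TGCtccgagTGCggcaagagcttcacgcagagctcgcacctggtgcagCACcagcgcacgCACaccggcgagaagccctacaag

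Of the 96 members, 95 matched the GENCODE annotation lifted to GRCh37, and *ZNF720* did not. The 95 proteins had a median of 8 C2H2 patterns, and the range ran from 0 to 22. *ZNF185*, *ZNF259*, *ZNF330*, *ZNF503* and *ZNF703* had no such pattern. A KRAB domain was found in 38 of the 95 proteins , by the score of a profile built from annotated proteins, and 34 of the 95 genes (35.8%) lay on chromosome 19. The ZNF names below the floor were of another make-up, with KRAB in 212 of 287 proteins (73.9%), 153 of 295 genes (51.9%) on chromosome 19 and a median of 11 patterns. The floor therefore left a set with fewer KRAB proteins than the ZNF names as a whole.

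Total reads on genes ran from 3686828 to 10546786 per library, and ASO_LINC replicate 3 had the fewest. In 83 of the 96 members the lowest count came from that library, so that its depth sets most of the floor. Of 7 squamous markers listed for a check of the label, *KRT5* was at 103 ± 12.3 CPM in ASO_CTRL and 69.0 ± 7.87 CPM in ASO_LINC (SD, n = 3), *KRT6A* was below the filter and the others were not analysed here. The simple epithelial keratins *KRT7*, *KRT8*, *KRT18* and *KRT19* were abundant in ASO_CTRL, with means of 1187 to 5086 CPM, and their log2 fold changes of −0.46 to −0.33 were not called. Of the 4 mesothelial markers, *MSLN* (0.06), *WT1* (−0.32) and *UPK3B* (−0.92) were not called, and *CALB2*, which encodes calretinin, fell from 601 to 154 CPM on average (log2 fold change −1.97, SE 0.21, edgeR quasi-likelihood adjusted p = 0.000195). The label rests on little evidence in these counts, and the cells are called H226 as labelled. Cell composition and RNA content per cell cannot be told apart in such bulk libraries.

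Most ZNF transcripts were of low to middle abundance. Members had a median of 24.4 CPM (counts scaled to the reads on genes of each library, with TMM factors), and ranged from 11.1 to 333 CPM over all libraries. The 5 highest were *ZNF706*, which encodes a small protein with 1 finger, at 333 CPM, *ZNF207*, a spindle assembly factor that binds BUB3, at 225 CPM, *ZNF330*, a nucleolar protein, at 194 CPM, *ZNF655* at 94.5 CPM and *ZNF609* at 70.0 CPM. Per kilobase of the longest annotated transcript the order was different. *ZNF330* was at 107 ± 12.7 RPKM (CPM divided by that length) in ASO_CTRL and *ZNF706* at 89.6 ± 11.6 (SD, n = 3). *ZNF330* was above *ZNF706* in each control library, though their ranges over these libraries overlapped. The next were *ZNF428* at 57.2 ± 12.9 and *ZNF593* at 56.0 ± 8.58. The median member was at 4.72 on this scale.

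None of the 5 most abundant members was called after knockdown by edgeR's quasi-likelihood test, DESeq2 or limma-voom, and 0 had an unadjusted p under 0.05 in edgeR. *ZNF706* stood at 332, 267 and 342 CPM in the ASO_CTRL libraries and at 387, 397 and 273 CPM in the ASO_LINC libraries. The groups overlapped, since ASO_LINC replicate 3 lay between the controls. Its log2 fold change of 0.17 had a standard error (SE) of 0.17 and an edgeR quasi-likelihood adjusted p of 0.520. *ZNF207* (0.11), *ZNF330* (−0.12) and *ZNF655* (0.09) had log2 fold changes no further from 0 than 1 standard error, and *ZNF609* stayed within 0.02 to 0.21 in the fits that left out 1 library.

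A gene was called when edgeR's quasi-likelihood test gave a Benjamini-Hochberg adjusted p under 0.01 over all 14660 genes tested and a log2 fold change beyond 0.5, the thresholds named in the methods of the study. Of the 96 members 4 were called (4.17%), against 7.54% of all genes tested and 8.92% of the 7859 other genes with at least 50 reads in each library. The called members were *ZNF185*, *ZNF598* and *ZNF274*, which rose after knockdown (3 of 96, against 4.91% of all genes tested), and *ZNF629*, which fell (1 of 96, against 2.63%). Another 8 members had a log2 fold change beyond 0.5 and missed the adjusted p, and 84 lay within 0.5 of 0. The lack of a call does not show that the remaining 92 members stayed constant. A 95% interval was built from the standard error and a t distribution on 4 degrees of freedom. It lay within −0.5 to 0.5 for 6 of the 96 members and within −1 to 1 for 84. The quasi-likelihood test itself uses more degrees of freedom, so this interval is wider than 1 matched to the test, and these counts are low. The median standard error was 0.18.

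**Figure D1:**
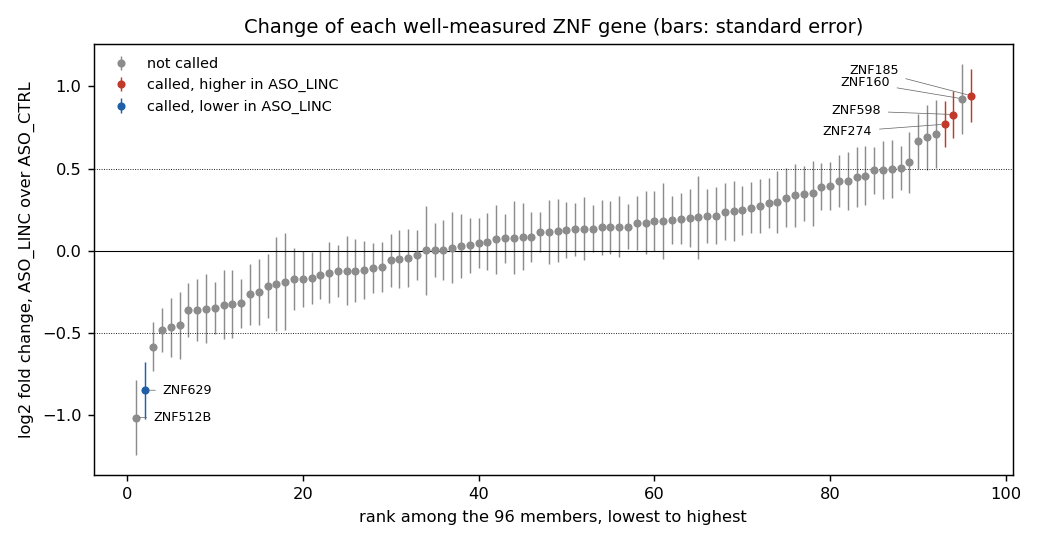
Fitted log2 fold change of ASO_LINC over ASO_CTRL (vertical axis) for the 96 members in order from lowest to highest (horizontal axis), with bars of 1 standard error and dotted lines at −0.5 and 0.5. The 3 red points and the blue point are the called members, and *ZNF512B* at −1.01 and *ZNF160* at 0.92 lie as far out but were not called.

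*ZNF185* encodes a LIM domain protein that associates with the actin cytoskeleton and has no C2H2 pattern. It lies on GRCh37 at chrX:152066611-152142025 on the plus strand. Its level was 27.9, 30.1 and 31.2 CPM in ASO_CTRL and 56.4, 68.1 and 46.4 CPM in ASO_LINC. All 3 knockdown libraries were above all controls, and replicate 3 was the closest to them. The mean rose from 29.7 ± 1.69 to 57.0 ± 10.9 CPM (SD, n = 3), which is 0.94 on the log2 scale (SE 0.16, edgeR quasi-likelihood adjusted p = 0.0034).

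*ZNF598* encodes a ubiquitin ligase that recognises collided ribosomes, and its protein had 1 C2H2 pattern. It lies on GRCh37 at chr16:2047655-2059822 on the minus strand. Its level was 46.6, 44.6 and 43.5 CPM in ASO_CTRL and 92.6, 72.6 and 73.5 CPM in ASO_LINC. The groups were apart by more than the range of either. The mean rose from 44.9 ± 1.58 to 79.5 ± 11.3 CPM, which is 0.83 on the log2 scale (SE 0.14, edgeR quasi-likelihood adjusted p = 0.0034). An unnamed gene on the opposite strand, ENSG00000260107, shared 8.24% of the 75-base windows of *ZNF598*, and the strand setting of the counting is not stated.

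*ZNF274* encodes a KRAB protein that brings SETDB1 to the 3′ ends of other ZNF genes, with 6 C2H2 patterns. It lies on GRCh37 at chr19:58694396-58724928 on the plus strand, and it was the only called member with KRAB. Its level was 51.7, 47.0 and 56.3 CPM in ASO_CTRL and 86.1, 98.4 and 79.7 CPM in ASO_LINC. Every knockdown library exceeded every control. The mean rose from 51.7 ± 4.65 to 88.1 ± 9.50 CPM, which is 0.77 on the log2 scale (SE 0.14, edgeR quasi-likelihood adjusted p = 0.0044).

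*ZNF629*, whose protein had 19 C2H2 patterns, lies on GRCh37 at chr16:30789777-30798526 on the minus strand. Its level was 24.1, 23.9 and 19.7 CPM in ASO_CTRL and 12.3, 11.3 and 14.1 CPM in ASO_LINC. No libraries of the conditions overlapped. The mean fell from 22.6 ± 2.52 to 12.6 ± 1.42 CPM, which is −0.85 on the log2 scale (SE 0.17, edgeR quasi-likelihood adjusted p = 0.0082).

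**Figure D2:**
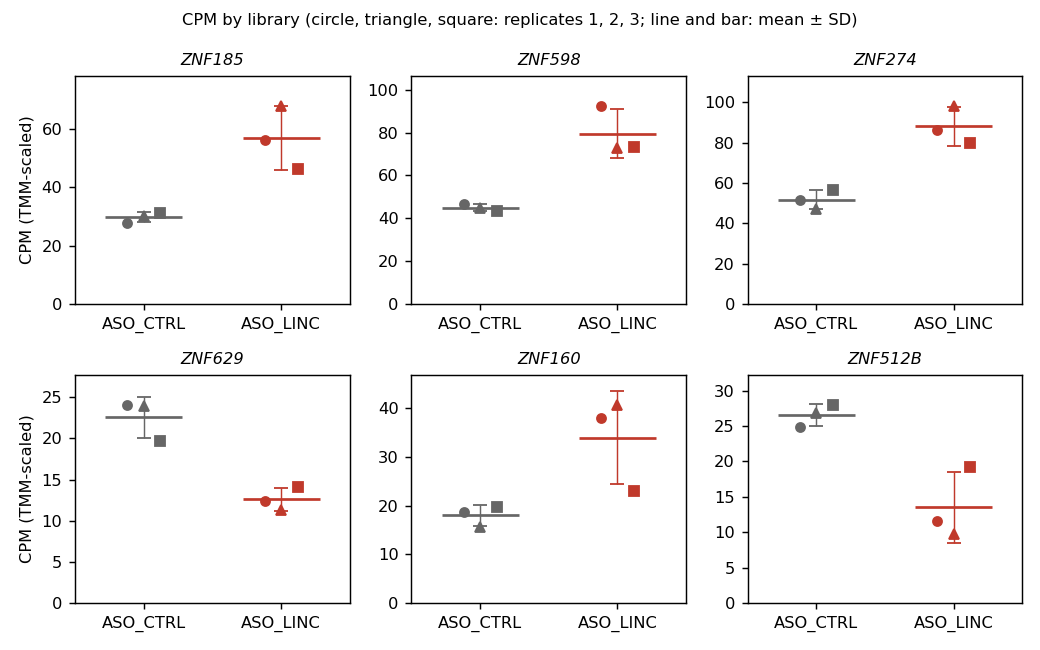
CPM in each library (vertical axes, from 0) for the 4 called members and for *ZNF160* and *ZNF512B*, with ASO_CTRL in grey and ASO_LINC in red, symbols for replicates 1 to 3, and the mean with its SD. In all 6 genes the conditions do not overlap, and in 5 of them, all but *ZNF598*, the square of ASO_LINC replicate 3 is the knockdown library nearest to the controls.

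These calls were sensitive to leaving out a library, except that all 4 held without ASO_LINC replicate 3. Fits that each left out 1 library called *ZNF185*, *ZNF274* and *ZNF629* in 1 of 6 and *ZNF598* in 2 of 6, with adjusted p of up to 0.0212, 0.0231, 0.0417 and 0.0276 in that order, and the log2 fold changes stayed at 0.80 to 1.06, 0.68 to 0.83, −0.94 to −0.77 and 0.70 to 0.89. Without ASO_CTRL replicate 1, 2 or 3, or without ASO_LINC replicate 1, no member was called by edgeR's quasi-likelihood test. The share of all genes called was 2.42% to 3.32% (2.87% without ASO_LINC replicate 1). In these 4 fits 17 to 21 members had an unadjusted p under 0.05 in the same test. For all genes the share at that unadjusted p was 32.4% with all 6 libraries, and it is not given for these fits. DESeq2 and limma-voom were run on all 6 libraries only. Without ASO_LINC replicate 2, *ZNF598* alone of the members was called, against 3.5% of all genes tested. Without ASO_LINC replicate 3 the count was 14, with 9 higher and 5 lower, against 17.2% of all genes tested.

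*ZNF160* and *ZNF512B*, the uncalled members with the largest log2 fold changes, are named here after their values were seen or because the study lists them. *ZNF160*, a KRAB gene with 20 C2H2 patterns on chromosome 19, stood at 18.7, 15.5 and 19.7 CPM in ASO_CTRL and at 38.1, 40.7 and 23.0 CPM in ASO_LINC. *ZNF512B*, on chromosome 20, stood at 24.9, 26.8 and 28.05 CPM in ASO_CTRL and at 11.6, 9.75 and 19.2 CPM in ASO_LINC. In both genes ASO_LINC replicate 3 lay between the controls and the other knockdown libraries. Their log2 fold changes were 0.92 (standard error 0.21) and −1.01 (standard error 0.23), with edgeR quasi-likelihood adjusted p of 0.0142 and 0.0127, and DESeq2 called both, against 10.9% of all genes tested. *ZNF512B* overlaps *UCKL1-AS1* on the opposite strand, with 3.52% of its 75-base windows shared.

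*ZNF503*, a corepressor of the NET family, is, like *ZNF512B*, in a list the study made from these samples, so their direction is not independent evidence. It stood at 50.6, 49.0 and 53.3 CPM in ASO_CTRL and at 38.9, 34.4 and 28.2 CPM in ASO_LINC, with no overlap. The log2 fold change was −0.58 (SE 0.15, edgeR quasi-likelihood adjusted p = 0.0227), which missed the threshold. The remaining uncalled members beyond 0.5, also named after their values were seen, were *ZNF121* (0.71), *ZNF146* (0.69), *ZNF710* (0.67), *ZNF468* (0.54) and *ZNF622* (0.50). In each of these 5 the ASO_LINC libraries lay above the controls, by 21.7 against 21.1 CPM at the closest for *ZNF121*.

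More members separated the conditions than passed the test. The CPM of the 3 ASO_LINC and the 3 ASO_CTRL libraries did not overlap in 30 of 96 members (31.2%), against 36.1% of all genes tested and 39.3% of the other genes over the floor. ASO_LINC was higher in 21 of these members (21.9%, against 18.7% of all genes tested) and lower in 9 (9.38%, against 17.3%). An adjusted p under 0.05 was reached by 13 members (13.5%), against 18% of all genes tested.

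The members were shifted slightly upwards and were less spread than the other genes over the floor. Their median log2 fold change was 0.12, beside −0.003 over all genes tested and 0.02 over the other genes over the floor. The SD was 0.35 among members and 0.49 among the other genes over the floor. Values above 0 were found in 63 of 96 members (65.6%), against 49.7% of all genes tested and 51.9% of the other genes over the floor. Genes are not replicates, and no test was made of the list.

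**Figure D3:**
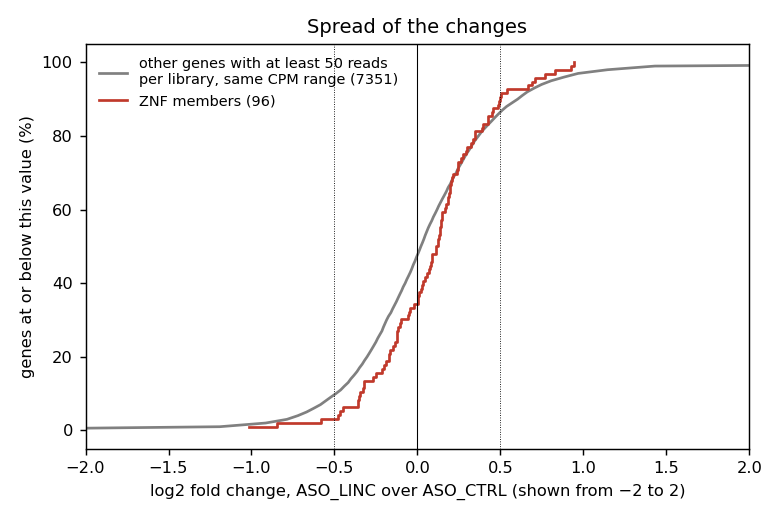
Share of genes at or below each log2 fold change of ASO_LINC over ASO_CTRL (horizontal axis, from −2 to 2), for the 96 members in red and for 7351 other genes over the same floor and in the same CPM range in grey. The red curve rises later than the grey around 0, at medians of 0.12 and 0.02, and its lower and upper ends lie at −1.01 and 0.94.

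The size of this shift varied with level, with the floor and with GC content. Members were cut into 3 equal groups by mean CPM. Up to 18.9 CPM the members and the other genes over the floor had the same median, 0.09 for each. From 18.9 to 29.9 CPM the medians were 0.11 and 0.03, and above that 0.14 and 0.005. With the floor set on the mean of the 6 libraries in place of each library, the median of the ZNF names was 0.03, and over all 344 ZNF names tested it was 0.04. After a correction of each library for transcript GC content and length it was 0.04 for the members and −0.01 for the other genes over the floor.

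The summed level of the members did not separate the conditions. They took 0.314%, 0.328% and 0.332% of the reads on genes in ASO_CTRL and 0.363%, 0.364% and 0.331% in ASO_LINC. ASO_LINC replicates 1 and 2 were above all controls and replicate 3 lay between the second and the third control. In summed CPM the means were 3273 ± 58.3 and 3516 ± 180 (SD, n = 3).

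ASO_LINC replicate 3 differed from the other knockdown libraries in how members moved with GC content. Members with transcript GC under 45% had median log2 changes from the control mean of 0.17, 0.24 and −0.07 in ASO_LINC replicates 1, 2 and 3. Members with GC over 55% had −0.16, −0.34 and 0.305. The sign turned between the first 2 libraries and the last in both groups. The other genes over the floor showed the same turn, with 0.17, 0.19 and −0.11 under 45% GC and −0.18, −0.21 and 0.27 over 55%. In 33 members the change in replicate 3 was opposite to the shared sign of replicates 1 and 2, 33 members were above the control mean in all 3 knockdown libraries and 17 were below it in all 3. The part of GC content in the differences between conditions was not tested. With the correction for GC content and length 6 members were called, the same 4 with *ZNF160* and *ZNF512B* (6.25%, against 11.7% of all genes tested).

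**Figure D4:**
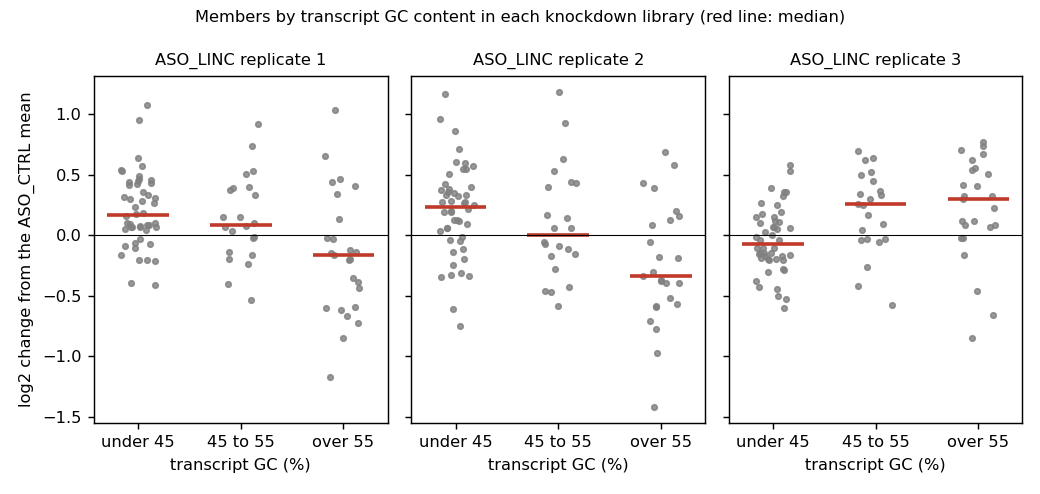
Log2 change of each member from the ASO_CTRL mean (vertical axis) in the 3 ASO_LINC libraries (panels), by GC content of the longest annotated transcript (horizontal axis, 48 members under 45%, 22 at 45 to 55% and 25 over 55%), with a red line at each median. The medians step down with GC in replicates 1 and 2, to −0.16 and −0.34, and step up in replicate 3, to 0.305.

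KRAB and other ZNF genes were close to each other. Among the 38 KRAB members the median was 0.08 and 1 gene was called, and the 57 members without KRAB had 0.13, with 3 called. Over all genes tested 7.54% were called, so that 1 of 38 (2.63%) and 3 of 57 (5.26%) are both below that share. By position, the 34 members on chromosome 19 had a median of 0.05, with 1 called, and the 61 elsewhere 0.14, with 3 called (2.94% and 4.92%). The 12 chromosome 19 members without KRAB had −0.13, and their per-library medians of −0.27, −0.31 and 0.17 followed the turn between libraries described for GC content (median GC 54.6%). Members with 0 to 2, 3 to 9 and 10 or more C2H2 patterns had medians of 0.03, 0.13 and 0.10.

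On chromosome 19 the members fell into 9 groups when neighbours up to 1 Mb apart were joined, and 3 of these groups held 5 or more members. The group at chr19:52772840-53965116 (GRCh37) held 9 members, each with KRAB, namely *ZNF766*, *ZNF480*, *ZNF534*, *ZNF83*, *ZNF611*, *ZNF28*, *ZNF468*, *ZNF160* and *ZNF761*. Of these, 8 had a log2 fold change above 0 and none was called by edgeR's quasi-likelihood test, while 4 of the 9 had an unadjusted p under 0.05 (against 32.4% of all genes tested), DESeq2 called *ZNF160* (against 10.9%) and limma-voom called 0. The median was 0.26 and the range was −0.46 (*ZNF766*) to 0.92 (*ZNF160*). In ASO_LINC replicates 1, 2 and 3 the median change of the 9 was 0.32, 0.38 and 0.07. The group at chr19:58011283-58992597 held *ZNF274* and 6 others and had a median of −0.15, with 2 of 7 above 0. *ZNF274* at 0.77 was the only called gene of that group. The third group, at chr19:9251073-9785776, had 5 members and a median of 0.05. The joining distance was chosen after the values were seen, and the groups were not tested.

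Some neighbouring copies of these genes carry a finger of nearly the same bases. The best match between fingers with their linker had a median identity of 66.7% over 1176 pairs of members, and no pair was identical. Of 246 such fingers in 49 members, the closest pair from different genes was finger 8 of *ZNF28* and finger 7 of *ZNF468*, identical at 83 of 84 bases. The next was finger 6 of *ZNF226* and finger 7 of *ZNF234*, identical at 81 of 84. Both pairs are shown 5′ to 3′ from the coding sequences on GRCh37 chromosome 19 (minus strand for the first pair, plus strand for the second), with the codons of the zinc-binding cysteines and histidines in capitals.
ZNF28 finger 8: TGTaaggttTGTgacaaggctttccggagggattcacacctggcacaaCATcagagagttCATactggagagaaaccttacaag
ZNF468 finger 7: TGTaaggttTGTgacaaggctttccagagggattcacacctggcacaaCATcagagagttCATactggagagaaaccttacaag
ZNF226 finger 6: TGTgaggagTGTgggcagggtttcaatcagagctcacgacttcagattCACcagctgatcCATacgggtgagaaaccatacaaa
ZNF234 finger 7: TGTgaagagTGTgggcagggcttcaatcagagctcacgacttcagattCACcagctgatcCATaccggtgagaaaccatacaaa

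Counted from 1 at the 5′ end of the printed finger, *ZNF28* and *ZNF468* differ by G26A, and *ZNF226* and *ZNF234* by G6A, T21C and G66C. The paired genes had log2 fold changes of 0.45 and 0.54, and of −0.36 and 0.14, and each missed the threshold. *ZNF28* and *ZNF468* overlap on the same strand, and each was the top partner of the other in shared 75-base windows (2.14% and 3.9%). The part of shared reads in their values was not tested. Over whole transcripts little sequence was shared. Of the 95 annotated members 58 shared no 75-base window with another transcript on the same strand, 85 shared under 5% and 5 shared over 20%, the highest being *ZNF395* with 41.5% shared with *FBXO16*. *ZNF185*, *ZNF629* and *ZNF160* shared no window on either strand. A gene on the opposite strand overlapped 60 members, and for *ZNF593* (88.3% of windows, *ZNF593OS*) and *ZNF337* (74.9%, *ZNF337-AS1*) the counts of the overlapping genes cannot be told apart without the strand setting.

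ZNF proteins with roles on ribosomes, RNA or the spindle had 11 genes tested, of which *ZNF598* rose and the others were not called (1 of 11, against 7.54% of all genes tested), with a median log2 fold change of 0.11. The call of *ZNF598* was lost with a replicate block (adjusted p = 0.0108 in edgeR) and when any 1 of 4 libraries was dropped, as given above. *ZNF622*, a factor of large ribosomal subunit maturation, stood at 45.1, 43.2 and 43.98 CPM in ASO_CTRL and at 62.8, 68.3 and 55.8 CPM in ASO_LINC. The conditions did not overlap, and the log2 fold change was 0.50 (SE 0.13, edgeR quasi-likelihood adjusted p = 0.0257). *ZNF593*, also of ribosome biogenesis, was at −0.32 with a standard error of 0.21. The splicing-linked *ZNF326* and *ZNF830* were at 0.15 and 0.03, and the RNA-binding *ZNF638* and *ZNF106* at 0.02 and 0.20.

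Of 6 tested genes for ZMYND8 and the ZNF partners of the ZMYND8 and NuRD corepressor complexes, none was called by edgeR's quasi-likelihood test. In that test 5 had an unadjusted p under 0.05 (against 32.4% of all genes tested). DESeq2 and limma-voom each called *ZNF512B* (against 10.9% and 8.27% of all genes tested). *ZNF512B* (−1.01), *ZNF219* (−0.45) and *ZNF687* (−0.04) had log2 fold changes below 0, and *ZNF592* (0.49), *ZNF827* (0.49) and *ZMYND8* itself (0.34), which is no ZNF gene by name, had values above 0. *ZNF827* stood at 21.01, 22.5 and 22.4 CPM in ASO_CTRL and at 29.0, 32.0 and 31.7 CPM in ASO_LINC, without overlap, with an adjusted p of 0.0378.

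ZNF transcription factors with known promoter targets had 11 genes tested and none called by edgeR's quasi-likelihood test, DESeq2 or limma-voom, with 4 at an unadjusted p under 0.05 in edgeR (against 32.4% of all genes tested), 3 in DESeq2 and 4 in limma-voom. *ZNF143*, an activator at promoters of coding and small nuclear RNA genes, was at 11.2 ± 1.505 CPM in ASO_CTRL and 15.9 ± 0.79 CPM in ASO_LINC (log2 fold change 0.50, SE 0.18, edgeR quasi-likelihood adjusted p = 0.0742). *ZNF395* was at 81.1 ± 7.24 and 58.0 ± 3.51 CPM (log2 fold change −0.48, SE 0.13, edgeR quasi-likelihood adjusted p = 0.0300), with no overlap between conditions. *ZNF148*, *ZNF384*, *ZNF263*, *ZNF703* and *ZNF652* lay between −0.17 and 0.19.

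KRAB proteins act through shared corepressors, and these were looked at beside them. Of 29 genes tested, *CBX5*, which encodes heterochromatin protein HP1 alpha, fell from 95.5 ± 6.44 to 57.0 ± 2.98 CPM (log2 fold change −0.74, SE 0.13, edgeR quasi-likelihood adjusted p = 0.0034). The other 28 were not called, so that 1 of 29 was called, against 7.54% of all genes tested. Of the 29, 9 had a log2 fold change above 0, and the median was −0.11. *CBX5* was called in the fit without ASO_LINC replicate 3 and in none of the other 5 that left out 1 library. With a replicate block no gene of the list was called. *TRIM28*, the corepressor that KRAB binds, had a log2 fold change of −0.23 with an SE of 0.19, and *SETDB1* was at 16.2 ± 1.61 CPM in ASO_CTRL and 14.9 ± 2.32 CPM in ASO_LINC (−0.12, SE 0.18). *HDAC1* had −0.57 with an edgeR quasi-likelihood adjusted p of 0.0225. In the other direction, *SMARCAD1* had 0.77 (adjusted p of 0.0866 in the same test, lowest count 12). *ATRX* had 0.40 (adjusted p of 0.149 in the same test). *SMARCAD1* and *ATRX* are named after their values were seen. Among 16 tested KRAB genes with known repressed targets, *ZNF274* rose and 15 were not called (1 of 16, against 7.54% of all genes tested). The call of *ZNF274* was lost with a replicate block (edgeR quasi-likelihood adjusted p = 0.0183). It held in 1 of 6 fits that left out 1 library, as given above. *ZNF133* (0.18) and *ZNF33A* (0.01) were the other members of that list over the floor.

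The promoters of the called members differed in their bases. RefSeq promoters on GRCh38.p14, from 250 bases before the annotated start to 50 after it, were at hand for 82 of 96 members. The *ZNF185* promoter (plus strand, chrX:152914182-152914481) held 4 CG dinucleotides, and the *ZNF598* promoter (minus strand, chr16:2009772-2010071) held 43, beside a median of 25 over the members and 27 over tested genes. They are shown because they are the lowest and the highest in CG count of the called members. Capitals in *ZNF185* mark TGAATCA, a match to TGANTCA, a loose pattern for AP-1 motifs that takes any middle base. *ZNF598* had no match.
ZNF185 promoter: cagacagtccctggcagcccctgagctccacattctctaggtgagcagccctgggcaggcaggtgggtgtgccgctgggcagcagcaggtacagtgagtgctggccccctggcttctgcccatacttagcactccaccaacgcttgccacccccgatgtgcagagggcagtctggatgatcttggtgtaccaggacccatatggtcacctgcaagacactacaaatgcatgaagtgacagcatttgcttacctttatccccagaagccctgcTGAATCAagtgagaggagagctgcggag
ZNF598 promoter: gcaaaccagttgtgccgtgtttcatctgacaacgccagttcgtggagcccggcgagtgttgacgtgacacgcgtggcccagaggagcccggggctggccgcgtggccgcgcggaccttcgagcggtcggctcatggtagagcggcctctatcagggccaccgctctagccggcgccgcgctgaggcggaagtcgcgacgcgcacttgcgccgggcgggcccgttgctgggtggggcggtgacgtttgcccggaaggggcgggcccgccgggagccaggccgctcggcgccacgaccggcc

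The motif TGANTCA reads the same way on both strands when N is any base. The match in *ZNF185* began 23 bases after the start. The motif was found in 8 of 82 member promoters (9.76%), in 4.52% of 9393 promoters of tested genes and in 7.76% of all 27305 promoters of the same length. *ZNF274* and *ZNF629* had none. The other members with a match were *ZNF226*, *ZNF317*, *ZNF576*, *ZNF534*, *ZNF260*, *ZNF3* and *ZNF83*. None of these was called, and their log2 fold changes ran from −0.36 to 0.29. A match describes letters, the matches were not sorted by their middle base, and no binding was measured here.

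Genes near the floor were handled by a rule on counts and not on change. Just inside it were *ZNF337* with a lowest count of 50 and *ZNF148* and *ZNF234* with 51, and just outside were *ZNF432*, *ZNF513* and *ZNF765* with 49. *ZNF697* is named after its values were seen. It was the only one called of the 248 ZNF names tested below the floor (0.403%, against 7.54% of all genes tested). It had 10, 14 and 19 reads in ASO_CTRL and 66, 47 and 24 in ASO_LINC, which is 2.16 on the log2 scale (SE 0.28, edgeR quasi-likelihood adjusted p = 0.000695), which was larger than that of any member.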

How the data were processed

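The authors sequenced single reads of 75 bases from oligo(dT)-primed cDNA, used STAR and the hg19 build, and deposited unnormalized read counts for each gene name. The counting tool and its strand setting are not given in the sources used here. The study's methods paragraph names another cell type for this RNA-seq, and the labels, used here, give H226. Reads assigned to no gene (24.8% to 28.1% of each library, in 4 rows) were left out.

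Conditions were taken from the labels. All genes were fitted in R 4.3.3 with edgeR 4.0.16 (filterByExpr, TMM, quasi-likelihood F-test, Benjamini-Hochberg). The standard error is the log2 fold change divided by the square root of F. For a single library, the change is its log2 CPM (prior count 2) less the mean over the controls. DESeq2 1.42.0 and limma 3.58.1 were alternatives. On counts simulated for 14678 genes, the test recovered 67 of 100 simulated log2 changes of 1 and 99 of 100 of size 2, and called 1 unchanged gene.

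Members and lists were chosen with earlier results of these data known. Named genes were the called members, the 5 of highest CPM, listed ZNF genes, *ZNF503* and *ZNF512B*, and the 3 names on each side of the floor, and others are marked in the text. Gene names were matched to GENCODE v44 lifted to GRCh37, with older symbols from RefSeq. C2H2 patterns and the KRAB profile of 30 residues were scored on translated coding sequences.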

Additional observations from a re-analysis of the deposited data

How the results depend on the processing

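The directions of the 4 called members held in every alternative run. DESeq2 called 6 members (6.25%, against 10.9% of all genes tested) and limma-voom 5 (5.21%, against 8.27%). Other scalings and filters on low counts called the same 4 (4.17%, against 6.3% to 7.7%). Deviations from the mean of each condition had correlations of 0.06, −0.15 and −0.18 between same-numbered libraries. With 3 libraries per condition these values cannot show whether same-numbered libraries were prepared together. With a replicate block 1 member (*ZNF185*, 1.04%) and 656 genes in all (4.47%) were called, and with GC and length correction 1713 genes (11.7%). At an adjusted p under 0.05 and a log2 fold change beyond 0.5 there were 11 members and 2465 genes. Leaving out 1 library gave 0 to 14 members, 359 to 2616 genes and a member median of 0.082 to 0.131.

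The median of the members, 0.12, was 0.10 with upper quartile scaling, 0.135 with library size only and 0.043 with the GC and length correction, with or without the block. It was 0.057 with a floor of 20 reads, 0.139 with 100, 0.034 with a mean of 50 and 0.043 over all ZNF names tested.

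Of 496 values of 31 named members 27 changed sign, all in genes that were not called. *ZNF33A* was −0.0068 with limma-voom, −0.012 with upper quartile scaling, −0.025 with the replicate block, −0.13 with the GC and length correction, −0.14 with both and −0.14 to 0.17 without 1 library. *ZNF638* was −0.0004, −0.0298, −0.11 and −0.14 in the last 4 of these and −0.18 to 0.21 without 1 library. *ZNF655* was −0.0387 with the GC and length correction, −0.0285 with the block added and −0.0138 to 0.20 without 1 library. Without 1 library *ZNF830* ran from −0.0506 to 0.11, *ZNF652* from −0.11 to 0.0491, *ZNF703* from −0.13 to 0.16, *ZNF330* from −0.23 to 0.0094 and *ZNF337* from −0.21 to 0.0417. The causes were not tested. ASO_LINC replicate 3 has the fewest reads, and its counts differed from those of replicates 1 and 2 by a chi-square of 13 and 14 per degree of freedom, against 2.5 between the latter. Control libraries also differed from one another, by 11.9, 8.25 and 6.94 on the same measure.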

Other observations

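Zinc finger genes with other names lay outside the set. *ZFP36*, which encodes a protein that binds AU-rich elements and promotes mRNA decay, was at 34.1, 32.0 and 31.5 CPM in ASO_CTRL and at 80.5, 69.8 and 74.0 CPM in ASO_LINC. It rose by 1.20 on the log2 scale (SE 0.13, edgeR quasi-likelihood adjusted p = 0.000231). *ZFP36* was the only one called of 11 ZFP names tested (9.09%, against 7.54% of all genes tested). The antisense RNA *ZNF503-AS2*, which overlaps *ZNF503*, was at 8.08, 13.9 and 10.6 CPM in ASO_CTRL and at 4.26, 4.45 and 5.96 CPM in ASO_LINC. Its log2 fold change was −1.17 (SE 0.26, edgeR quasi-likelihood adjusted p = 0.0122), which missed the threshold, and the part of shared reads in this value was not tested. *ZFP62* was at −0.69 with an adjusted p of 0.0309.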
